A study of Danio rerio with 12 samples.

Results

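The T-cell coreceptor genes *cd8a*, *cd8b*, *cd4-1* and *cd4-2.1* of zebrafish were followed in T-cell tumors driven by human *IRF4*. Cd8a and Cd8b form a coreceptor for class I MHC, and Cd4 molecules bind class II MHC. Both kinds of coreceptor bring the kinase Lck to the T-cell receptor. Thymocytes start as double-negative cells without either coreceptor, pass a double-positive stage with both, and keep 1 as single-positive cells. In zebrafish, transcripts of *cd4-1* are also known from mononuclear phagocytes, so a Cd4 transcript is less exclusive to T-cells than a Cd8 transcript.

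The genes were found by their names among 25607 zebrafish Ensembl genes. There were rows named *cd8a* (ENSDARG00000044797), *cd8b* (ENSDARG00000058682) and *cd4-1* (ENSDARG00000070668). No row carried the name *cd4-2.1*. RefSeq lists that name both for a gene of its own and as a synonym of *cd4-2.2*, and the row of *cd4-2.2* (ENSDARG00000073950) was used for the fourth gene. The values below are therefore called *cd4-2.2*, and a separate *cd4-2.1* was not analysed here. The genes were chosen by their day 3 values: the fall of *cd8a* and *cd8b* between DMSO and JQ1 libraries of day 3 was already known, so every comparison with a day 3 library is a description of these genes without a test. Only the comparison at day 1 used libraries whose values did not choose the genes, though earlier results of these data were known when the tests were chosen.

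RNA came from mCherry-sorted cells of Tg(lck:IRF4) fish of the Singapore wild-type strain, 10 months old, in which the zebrafish *lck* promoter drives the human transgene and mCherry. Fish with tumors were kept in individual tanks with the BRD inhibitor JQ1 at 4 μM or with its vehicle DMSO. The labels give 4 groups of 3 libraries: DMSO day 1, JQ1 day 1, DMSO day 3 and JQ1 day 3. They state 3 independent animals for the experiments, without saying whether both days had animals of their own, and day 1 is described by the labels only. The labels do not give the *p53* genotype of these fish, and the treated fish imaged in the study were *p53* wt/wt. The sort selects *lck* promoter activity rather than a stage of T-cell development, so each library is a mixture of cells.

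Libraries held 8176139 to 12771912 counts on zebrafish genes, and replicates differed by more than sampling noise. Levels are given as CPM, TMM-normalized counts per 1e6 counts on zebrafish genes. Before the TMM factor, 3 counts correspond to 0.235 to 0.367 CPM. With it, 3 counts stood at 0.41 CPM in DMSO day 3 replicate 3. The 4 pan-T markers *bcl11ba*, *themis*, *lat* and *lck* were detected in every library, with a summed level of 2200 to 3770 CPM in DMSO day 1, 1850 to 2980 CPM in JQ1 day 1, 2760 to 3660 CPM in DMSO day 3 and 500 to 1800 CPM in JQ1 day 3. Of 8 macrophage markers 6 were matched, none at 0 in any library. Their sum was 77.3 to 1120 CPM in DMSO day 1, 210 to 1040 CPM in JQ1 day 1, 89 to 292 CPM in DMSO day 3 and 579 to 2510 CPM in JQ1 day 3. In these bulk samples, fewer cells of a type and less RNA per cell cannot be told apart.

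*cd8a* and *cd8b* were high in 1 of the 4 groups, the DMSO libraries of day 3. *cd8a*, which encodes the Cd8 chain found in both the homodimer and the heterodimer, had 1.74, 4.51 and 6.96 CPM in DMSO day 1 and 0.687, 6.6 and 1.49 CPM in JQ1 day 1. It had 10.1, 79.7 and 107 CPM in DMSO day 3 and 2.52, 1.19 and 2.13 CPM in JQ1 day 3. The 2 highest values came from replicates 2 and 3, while replicate 1 of DMSO day 3 lay just above the highest value of the 9 other libraries, 6.96 CPM. Group means were 4.4 ± 2.61, 2.93 ± 3.21, 65.6 ± 50 and 1.95 ± 0.684 CPM (SD, n = 3 each) in the same order, and the means other than that of DMSO day 3 differed by less than the SD of DMSO day 1.

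*cd8b*, which encodes the second chain of the Cd8 heterodimer, had 2.69, 6.81 and 2.79 CPM in DMSO day 1 and 20.8, 66.6 and 31.3 CPM in DMSO day 3. After JQ1 it had 0.589, 2 and 0.0876 CPM at day 1 and 0.839, 0.25 and 0.947 CPM at day 3. Each DMSO library of day 3 was above the highest of the 9 others, 6.81 CPM, and each JQ1 library was below each DMSO library of either day. The lowest value rested on 1 count, with an exact Poisson 95% interval of 0.00222 to 0.488 CPM that covers counting error only. Means were 4.1 ± 2.35, 0.891 ± 0.99, 39.6 ± 24 and 0.679 ± 0.375 CPM (SD, n = 3 each) for DMSO day 1, JQ1 day 1, DMSO day 3 and JQ1 day 3, and the means of the 2 JQ1 groups lay within their SD of each other.

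The Cd4 genes had no such group. *cd4-1*, the zebrafish Cd4 gene used to mark CD4 T-cells, had 1.82, 4.89 and 22.5 CPM in DMSO day 1 and 6.09, 3.13 and 3.15 CPM in JQ1 day 1. It had 8.01, 17.3 and 7.24 CPM in DMSO day 3 and 5.88, 10.9 and 12.9 CPM in JQ1 day 3. The groups overlapped at both days, and the highest value of all 12 libraries was that of DMSO day 1 replicate 3. The means were 9.74 ± 11.2, 4.12 ± 1.7, 10.9 ± 5.62 and 9.89 ± 3.61 CPM (SD, n = 3 each) in the order DMSO day 1, JQ1 day 1, DMSO day 3 and JQ1 day 3, and none differed from its neighbour in rank by more than the larger of the 2 SDs.

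*cd4-2.2*, a further Cd4 family gene beside *cd4-1* in the genome, had 1.39, 2.78 and 9.46 CPM in DMSO day 1 and 1.18, 5.56 and 2.89 CPM in JQ1 day 1. At day 3 it had 3.53, 4.58 and 0.41 CPM after DMSO and 4.65, 6.12 and 5.6 CPM after JQ1. DMSO day 1 replicate 3 was again the highest, and the lowest, DMSO day 3 replicate 3, rested on 3 counts. Means were 4.54 ± 4.31, 3.21 ± 2.21, 2.84 ± 2.17 and 5.46 ± 0.745 CPM (SD, n = 3 each) in that order of groups, and here too neighbours in rank differed by less than the larger SD. Reads with more than 1 mapping place were not counted, so a Cd4 gene loses the reads it shares with a close relative.

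**Figure D1:**
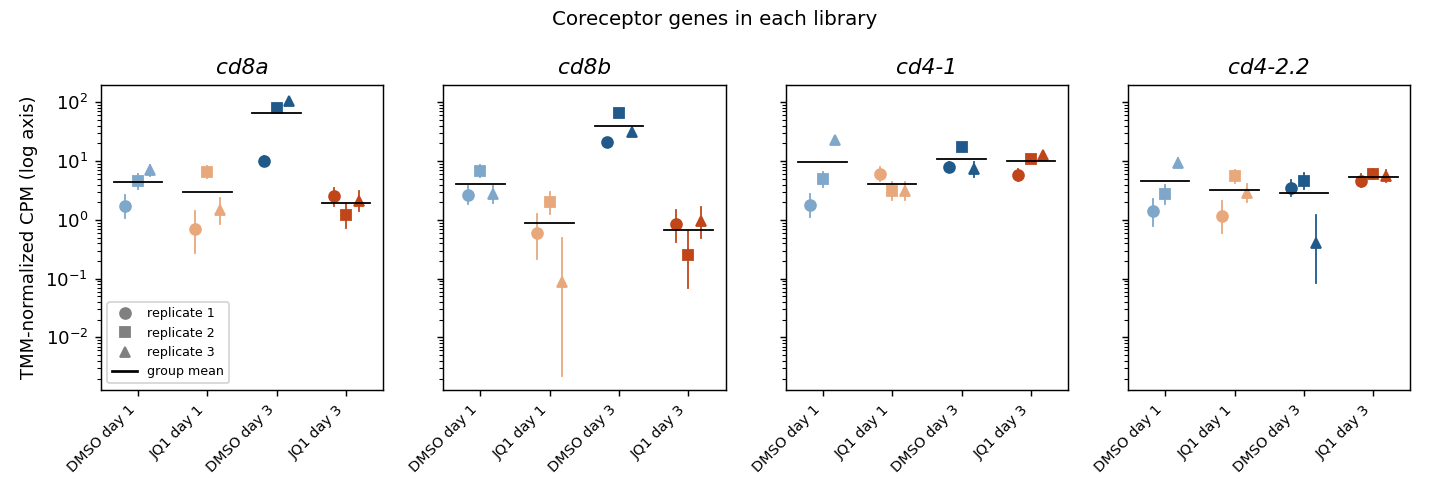
TMM-normalized CPM (log axis) of the 4 coreceptor genes in each of 12 libraries, by group, with circles, squares and triangles for replicates 1, 2 and 3, vertical lines for exact Poisson 95% intervals of the counts and horizontal lines for group means. The DMSO day 3 libraries sit above all 9 others in *cd8a* (lowest 10.1 CPM) and *cd8b* (lowest 20.8 CPM), while *cd4-1* and *cd4-2.2* show no such separation.

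At day 3 the log2 fold change after JQ1, relative to DMSO, was −5.01 (standard error 0.89) for *cd8a* and −5.81 (standard error 0.69) for *cd8b*. These were the 10th and the 5th lowest of 16271 genes tested, and *igf2bp1*, an RNA-binding protein gene, came next after *cd8a* at −4.98. The same comparison gave −0.07 (standard error 0.49) for *cd4-1* and 0.99 (standard error 0.77) for *cd4-2.2*. In both Cd8 genes each JQ1 library was lower than each DMSO library, which held for 26.6% of all genes tested, and in *cd4-2.2* each was higher, which held for 24.7%. For *cd4-2.2* the nearest JQ1 and DMSO libraries had 4.65 and 4.58 CPM, with Poisson intervals that overlapped. Its change was 0.41 without DMSO day 3 replicate 3, the library with 3 counts. Over all genes, 25.2% passed an adjusted p of 0.05 at day 3 (edgeR's quasi-likelihood test with Benjamini-Hochberg adjustment), 15.3% higher and 9.91% lower. With ERCC spike-in scaling, described below, the balance turned to 1837 genes higher and 3831 lower, against 2491 and 1613. These shares are the background for a contrast that chose the Cd8 genes, and nothing is read from the position of the pair in it. Without 1 library in turn, the change at day 3 stayed between −5.57 and −4.55 for *cd8a* and between −6.17 and −5.26 for *cd8b*.

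The vehicle groups of the 2 days were then set side by side. From DMSO day 1 to DMSO day 3 the log2 fold change was 3.77 (standard error 0.94) for *cd8a* and 3.17 (standard error 0.59) for *cd8b*, the 14th and the 29th highest of 14106 genes. The libraries of the 2 days did not overlap in either gene, which 6.35% of genes showed in this direction and 3.71% in the other. *cd4-1* had 0.01 (standard error 0.91) and *cd4-2.2* −0.81 (standard error 1.01), and both overlapped. Over all genes 0 of 14106 passed the threshold between the vehicle groups by edgeR (701 at an unadjusted p under 0.05), and DESeq2 called 122.

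From JQ1 day 1 to JQ1 day 3 the Cd8 genes moved little. The log2 fold change was −0.59 (standard error 0.89) for *cd8a* and −0.39 (standard error 1.14) for *cd8b*. It was 1.27 (standard error 0.50) for *cd4-1* and 0.77 (standard error 0.62) for *cd4-2.2*. The 2 days overlapped in all 4 genes, against non-overlap in 7.08% of all genes toward day 3 and in 7.55% toward day 1. Without JQ1 day 1 replicate 2, which held the highest *cd8a* and *cd8b* values of that group, the change turned to 0.82 for *cd8a* and 0.99 for *cd8b*. Both Cd8 genes thus had lower levels in the 2 JQ1 groups and in DMSO day 1 than in DMSO day 3. The values of DMSO day 3 had a part in the choice of these genes. At day 1 the JQ1 and DMSO libraries overlapped in *cd8a* and did not in *cd8b*. With 3 libraries a group, the day and the individual tumors cannot be told apart.

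**Figure D2:**
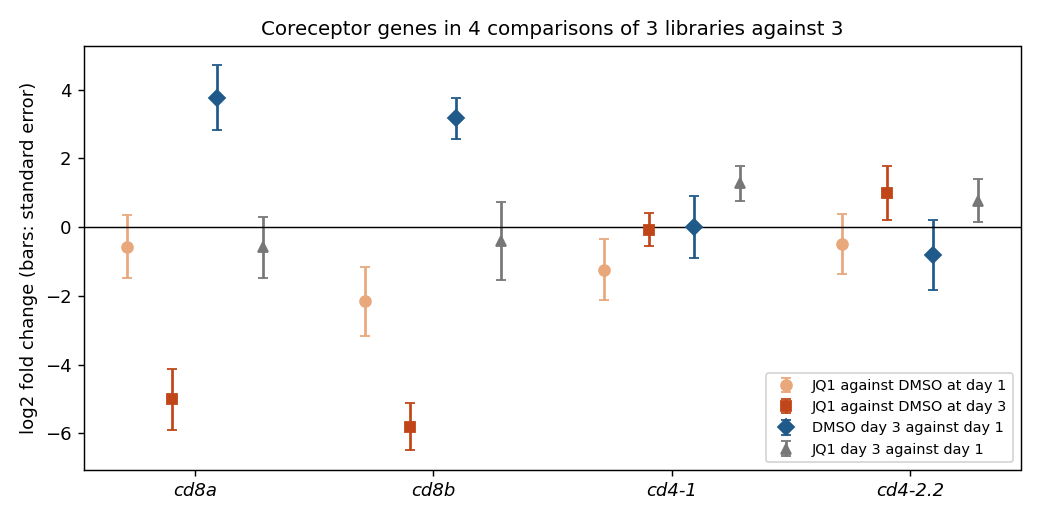
Log2 fold changes with standard errors of the 4 coreceptor genes in 4 comparisons of 3 libraries against 3, which share groups with each other. *cd8a* and *cd8b* stand near −5.01 and −5.81 for JQ1 against DMSO at day 3 and near 3.77 and 3.17 for DMSO day 3 against day 1, and the 2 remaining comparisons lie nearer to 0.

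Day 1 asked whether the Cd8 genes were lower after JQ1 in libraries that had no part in their choice. The log2 fold change was −2.16 (standard error 1.01) for *cd8b*, with each of 3 JQ1 libraries below each of 3 DMSO libraries, and it did not pass the test (edgeR adjusted p = 0.253, unadjusted p = 0.0667). For *cd8a* it was −0.57 (standard error 0.92, edgeR adjusted p = 0.761), with JQ1 day 1 replicate 2 at 6.6 CPM among the DMSO values. For *cd4-1* it was −1.24 (standard error 0.89, edgeR adjusted p = 0.443) and for *cd4-2.2* −0.49 (standard error 0.87, edgeR adjusted p = 0.784). Of the 4 genes 0 were called and 1 did not overlap in the lower direction. Among all 15813 genes 0.0443% were called, all of them higher, and 14.8% did not overlap in the lower direction (16.3% in the higher), so the non-overlap of *cd8b* is not unusual at this day. In simulated data of this comparison, with 200 changed genes, only 31.5% of 4-fold changes were called. That share covers genes of all levels and was not computed for genes as low as the coreceptors. A gene that did not pass may still have changed. The calls over all genes at day 1 hung on 1 library. Without DMSO day 1 replicate 3, 1591 of 16738 genes were called by edgeR, 1191 higher and 400 lower. The omission of any other library of day 1 gave 0 calls. Without DMSO day 1 replicate 3 the Cd4 genes turned to 0.28 (*cd4-1*) and 0.63 (*cd4-2.2*), and without JQ1 day 1 replicate 2 the change was −2 for *cd8a* and −3.59 for *cd8b*.

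Scaling by the ERCC spike-in, synthetic RNA added by cell number, gave another picture at day 1. With library sizes from the ERCC counts all 4 genes were lower after JQ1 past the threshold (edgeR), with log2 fold changes of −2.35 for *cd8a* (adjusted p = 0.0415), −3.75 for *cd8b* (adjusted p = 0.00762), −2.54 for *cd4-1* (adjusted p = 0.019) and −2.23 for *cd4-2.2* (adjusted p = 0.0469). On the log2 scale, gene counts per ERCC count were 6.738, 6.75 and 6.473 in DMSO day 1 replicates 1, 2 and 3. They were 6.006, 4.721 and 4.446 in JQ1 day 1, so the shift was largest in JQ1 replicates 2 and 3. The median of all genes moved to −1.51 with this scaling, and 5945 of 15813 genes were called lower. Relative to that median the changes were −0.84, −2.24, −1.03 and −0.72 in the same order, near their values with TMM. Over all alternatives except the omission of a library, the adjusted p (edgeR or DESeq2) ranged from 0.018 to 0.96 for *cd8a*, from 0.000946 to 0.494 for *cd8b*, from 0.0153 to 0.773 for *cd4-1* and from 0.0199 to 0.939 for *cd4-2.2*. At day 3 the ERCC scaling moved the median of all genes to −0.38, and the Cd8 genes stood at −5.02 and −5.87 from it.

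Ratios between genes of the same library do not depend on scaling. They were formed with *lck*, the kinase that coreceptors carry and whose promoter drives the transgene. *lck* itself had 1010 ± 353 CPM in DMSO day 1, 769 ± 390 CPM in JQ1 day 1, 1110 ± 136 CPM in DMSO day 3 and 327 ± 205 CPM in JQ1 day 3 (SD, n = 3 each), with a log2 fold change of −1.71 at day 3 that missed the threshold (edgeR adjusted p = 0.0629). It passed with ERCC scaling (edgeR adjusted p = 0.0214), in the fit over 12 libraries (edgeR adjusted p = 0.0427), by DESeq2 (adjusted p = 0.0132) and without JQ1 day 3 replicate 2 (−1.27, edgeR adjusted p = 0.048). It missed with RLE factors (edgeR adjusted p = 0.0657). With libraries scaled by the pan-T markers, of which *lck* is 1, it had −0.48 (edgeR adjusted p = 0.459). With a replicate block, or without any 1 DMSO library of day 3, no gene passed. The counts are not divided by gene length, so the ratios are compared between libraries and not between genes.

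Against *lck*, *cd8b* counts amounted to 2.15%, 6% and 2.52% of *lck* counts in DMSO day 3 and to 0.182%, 0.275% and 0.221% in JQ1 day 3. The log2 ratios averaged −4.97 ± 0.8 and −8.81 ± 0.3 (SD, n = 3 each), a difference of −3.84 without overlap, which 0.129% of 16270 genes showed against *lck* in this direction, in the contrast that chose the gene. For *cd8a* the shares were 1.04%, 7.18% and 8.64% of *lck* in DMSO day 3 and 0.547%, 1.31% and 0.497% in JQ1 day 3. The difference of −2.5 on the log2 scale came with an overlap, because JQ1 day 3 replicate 2, which had the lowest *lck* level at 90.9 CPM, lay above DMSO day 3 replicate 1. At day 1 the *cd8a* to *lck* ratio differed by −0.56 between JQ1 (−8.55 ± 2.32) and DMSO (−7.99 ± 1.53; two-sided exact permutation test, p = 0.8, where 3 against 3 allow 0.1 at the least), and it turned positive without DMSO day 1 replicate 3 (0.21) or JQ1 day 1 replicate 1 (0.55). The *cd8b* to *lck* ratio differed by −2.54 at day 1 (exact permutation test, p = 0.2). The difference was −1.42 without JQ1 day 1 replicate 3, whose *cd8b* value was 1 count, and −3.88 without JQ1 day 1 replicate 2. The 4 ratios to *lck* overlapped between the groups of day 1, against non-overlap in 12.7% of genes toward JQ1 and in 2.91% toward DMSO. Over the 7 ratios compared at day 1, the smallest Benjamini-Hochberg adjusted p of the exact permutation tests was 0.7. With 3 against 3 none of these tests could pass 0.05, so they decide nothing.

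At day 3 *lck* itself had a lower level after JQ1, and most genes stood higher against it, with a median difference of 2.04 over all genes and non-overlap toward JQ1 in 72.3% of them (0.5 added to each count). The Cd4 genes lay within that general shift. *cd4-2.2* amounted to 0.364%, 0.412% and 0.033% of *lck* counts after DMSO and to 1.01%, 6.74% and 1.31% after JQ1, a log2 difference of 3.6 without overlap, and 25.9% of genes had a larger one. Without DMSO day 3 replicate 3, with 3 counts of *cd4-2.2*, the difference was 2.42. *cd4-1* amounted to 0.826%, 1.56% and 0.584% after DMSO and to 1.28%, 12% and 3% after JQ1, a difference of 1.98 with overlap, which 51.9% of genes exceeded and which was 1.1 without JQ1 day 3 replicate 2. That library, with the highest macrophage marker sum at 2510 CPM and the lowest pan-T sum at 500 CPM, gave the highest share in both genes. The ratio of *cd8a* to *cd4-1* counts, which uses neither *lck* nor a library size, averaged 2.14 ± 1.78 in DMSO day 3 and −2.34 ± 1.01 in JQ1 day 3 on the log2 scale (SD, n = 3 each), a difference of −4.48 that ran from −5.38 to −3.61 without 1 library in turn.

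The 2 Cd8 chains did not keep a fixed proportion. *cd8b* counts were 155%, 151% and 40% of *cd8a* counts in DMSO day 1, 85.7%, 30.3% and 5.88% in JQ1 day 1, 207%, 83.6% and 29.2% in DMSO day 3 and 33.3%, 21.1% and 44.4% in JQ1 day 3. The log2 ratio was lower after JQ1 by 1.98 at day 1 (−2.01 ± 1.95 against −0.03 ± 1.12, SD, n = 3 each), a difference that did not pass (two-sided exact permutation test, p = 0.2 and the smallest possible 0.1). Without JQ1 day 1 replicate 3, whose *cd8b* value was 1 count, the difference was −0.94. At day 3 it averaged −0.33 ± 1.41 after DMSO and −1.67 ± 0.54 after JQ1 (SD, n = 3 each), with overlap, and the difference of −1.34 was −0.65 without DMSO day 3 replicate 1 and −2.06 without DMSO day 3 replicate 3.

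**Figure D3:**
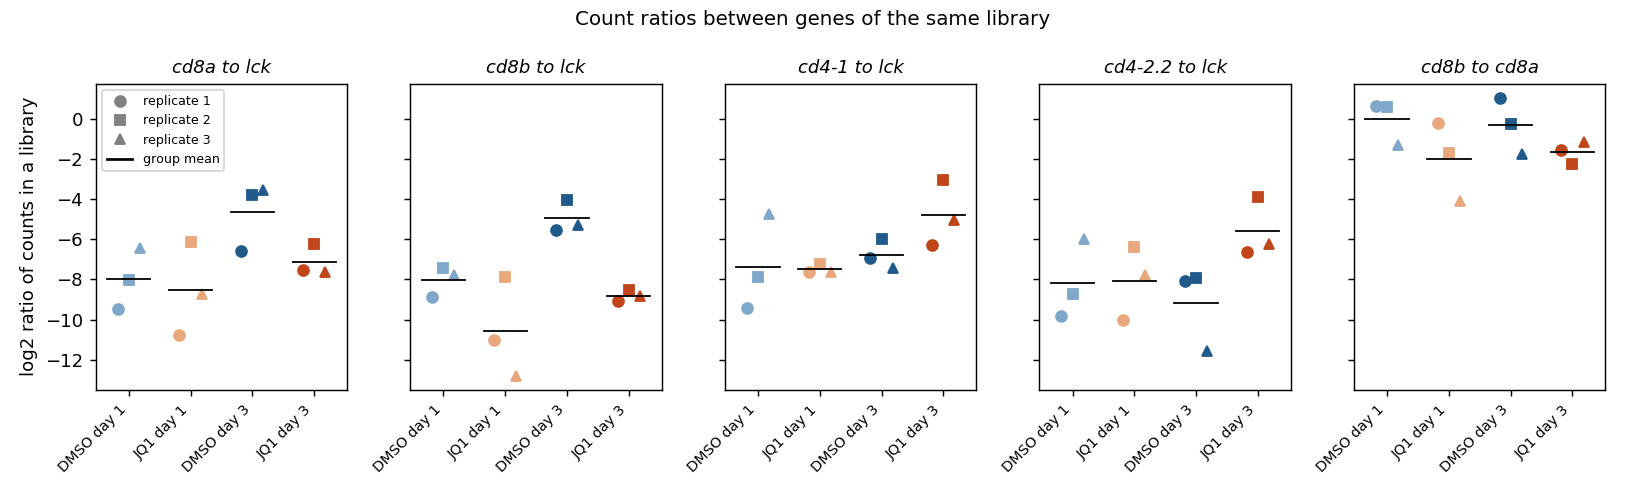
Log2 ratios of counts within each library for each coreceptor gene to *lck* and for *cd8b* to *cd8a*, by group, with circles, squares and triangles for replicates 1, 2 and 3 and lines for group means. The *cd8b* to *lck* ratio is highest in the DMSO day 3 libraries (mean −4.97), and the 2 Cd4 genes are highest against *lck* in JQ1 day 3 replicate 2.

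Across the 12 libraries *cd8a* and *cd8b* varied together, with a Pearson correlation of 0.89 and a Spearman correlation of 0.89 on log2 CPM. The Pearson correlation was 0.58 for deviations from the group means and 0.79 without the 2 libraries farthest from the median of *cd8a*. *cd8b* was the gene most like *cd8a* of 18116 compared, ahead of *C5H9orf78* (0.886), the histone gene *H3-3B* (0.867) and *ttf1.2* (0.863). The genes most like *cd8b* were *lrwd1*, whose product binds the origin recognition complex (0.938), *RMND5B* (0.93), the sphingomyelinase gene *SMPD3* (0.93), the mitotic kinesin gene *KIF14* (0.927) and *STEEP1* (0.923). These correlations describe 12 libraries in 4 groups, and for deviations from the group means they were 0.453 to 0.778 for the genes named here. The 12 include the day 3 libraries by which both Cd8 genes were chosen, so the choice had a part in their correlation and rank. For deviations from the group means, *C5H9orf78* (0.599) and *H3-3B* (0.771) were more like *cd8a* than *cd8b* was, and *ttf1.2* (0.453) was less.

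The Cd4 genes were unlike the Cd8 genes and varied with the macrophage and the B-cell markers to different degrees. *cd4-2.2* had a Pearson correlation of 0.77 and a Spearman correlation of 0.86 with the summed macrophage markers over the 12 libraries (0.82 within groups, 0.76 without the 2 farthest libraries), and −0.60 and −0.82 with the pan-T sum. For *cd4-1* and the macrophage sum the values were 0.37 and 0.41 (0.71 within groups, 0.05 without the 2 farthest libraries). With the summed B-cell markers, of which 5 were matched, *cd4-1* gave 0.63 and 0.70 (0.75 within groups, 0.51 without the 2 farthest libraries) and *cd4-2.2* gave 0.64 and 0.57 (0.74 within groups, 0.63 without the 2 farthest). The B-cell sum was 57.3 to 150 CPM in DMSO day 1, 97.1 to 107 CPM in JQ1 day 1, 56.2 to 172 CPM in DMSO day 3 and 77.4 to 137 CPM in JQ1 day 3. It mostly reflects *cd40* and *blnk*, which had 59.7 and 75.6 CPM of the 150 CPM in DMSO day 1 replicate 3. The group means of *pax5*, *cd79a* and *cd79b* were at most 6.32, 16 and 3.55 CPM. The library with the highest *cd4-1* and *cd4-2.2* levels, DMSO day 1 replicate 3, had a macrophage sum of 1120 CPM against 77.3 and 139 CPM in the other DMSO libraries of that day. In JQ1 day 1 the macrophage sums were 210, 1040 and 893 CPM in replicates 1, 2 and 3. There *cd4-1* ran the other way, with 6.09, 3.13 and 3.15 CPM, and *cd4-2.2* had 1.18, 5.56 and 2.89 CPM. *cd8b* and the macrophage sum gave −0.62 and −0.53 (−0.05 within groups, −0.61 without the 2 farthest). For *cd8a* the values were −0.37 and −0.30, with 0.39 within groups and −0.12 without the 2 farthest libraries. The part of macrophage and B-cell RNA in the Cd4 values was not tested.

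Genes most like *cd4-2.2* were *si:ch73-236c18.7* (0.964), the GTPase-activating protein gene *ARHGAP22* (0.952), *MFSD6* (0.95), *zgc:153184* (0.95) and the protein kinase C gene *PRKCA* (0.944). Genes most like *cd4-1* were *TMEM161B* (0.922), the metalloprotease gene *mep1a.1* (0.869), *paqr7a* (0.846), *ETFDH* (0.842) and the chitinase gene *chia.1* (0.841). No gene was among the 5 nearest of more than 1 coreceptor gene.

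**Figure D4:**
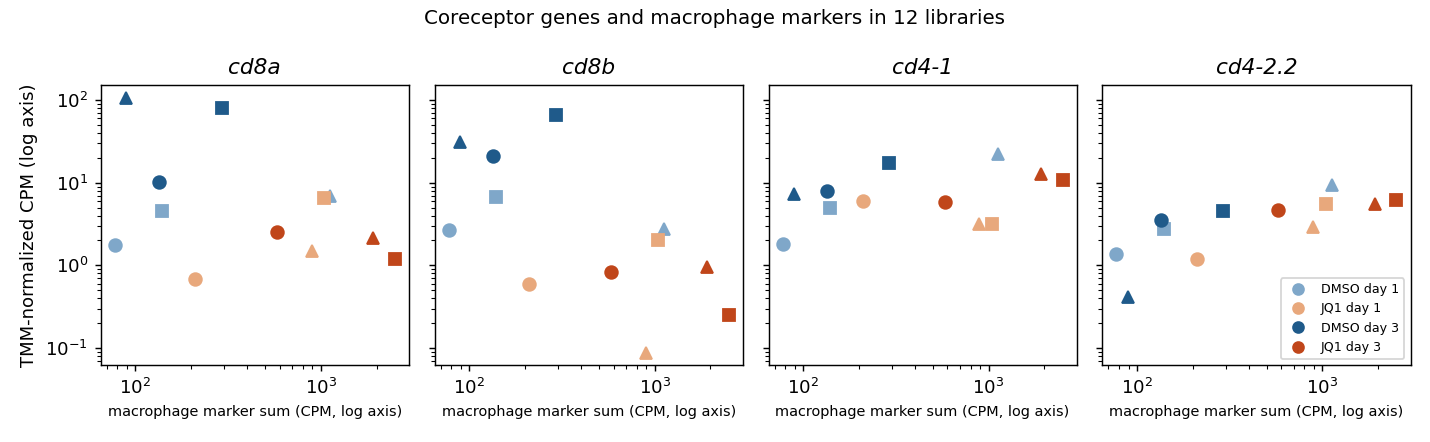
Level of each coreceptor gene (TMM-normalized CPM, log axis) against the summed CPM of 6 macrophage markers (log axis) in 12 libraries, with colours for groups and circles, squares and triangles for replicates 1, 2 and 3. *cd4-2.2* is higher in libraries with a higher macrophage sum (Pearson correlation 0.77, and 0.82 within groups). *cd8b* is lower in them (−0.62) across groups only, with −0.05 within groups.

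The genes around the coreceptors were read from lists, of which 69 genes other than the coreceptors were tested at day 3. Of these 8 were higher and 12 lower past the threshold, 20 in all, beside 25.2% of all genes. The balance was 28 higher and 2 lower with libraries scaled by the pan-T markers, where 6671 of all genes were higher and 20 lower, and 8 higher and 22 lower with ERCC scaling. Their median log2 fold change was 0.03, and that of all genes 0.05. The count was 0 without any 1 DMSO library of day 3 (28 to 34 listed genes at an unadjusted p under 0.05), 4 without JQ1 day 3 replicate 2, 11 without JQ1 day 3 replicate 3 and 18 without JQ1 day 3 replicate 1 (edgeR). At day 1 the count was 0 of 68 listed genes by edgeR (14 at an unadjusted p under 0.05), 4 without DMSO day 1 replicate 3, and 6 by DESeq2 with size factors from the genes. The change of the JQ1 effect between days was called in 0 of 72 listed genes (interaction term over all 12 libraries, edgeR, with 7 at an unadjusted p under 0.05).

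Among the genes listed for the double-positive stage, in which both coreceptors are made, 3 of 7 tested genes were lower and 3 higher. *rag1*, whose product cuts antigen receptor genes for recombination, had 275, 1010 and 1140 CPM in DMSO day 3 and 90.7, 37.7 and 134 CPM in JQ1 day 3, a log2 fold change of −3.15 (standard error 0.67, edgeR adjusted p = 0.0267) that missed the threshold in the fit over 12 libraries (edgeR adjusted p = 0.0541). Its partner *rag2* fell by 2.66 on the log2 scale (standard error 0.70, edgeR adjusted p = 0.0368). *rorc*, which in mice encodes a nuclear receptor of double-positive thymocytes, had 176, 188 and 110 CPM after DMSO and 11, 8.44 and 30.9 CPM after JQ1, a log2 fold change of −3.18 (standard error 0.54, edgeR adjusted p = 0.0223). In the vehicle at day 1, *rag1* had 247, 797 and 32.8 CPM and *rorc* 106, 146 and 19.8 CPM. Replicates 1 and 2 of that group lay above every JQ1 library of day 3, whereas replicate 3 was below them all in *rag1* and among them in *rorc*. The vehicle groups of the 2 days overlapped in both genes (log2 fold changes of 1.09 and 0.74). *dntt* (3.76), the terminal transferase gene, and *rorca* (3.51) and *rorcb* (1.98), of the same receptor family as *rorc*, were higher after JQ1, the first 2 with group means of at most 7.3 and 9.24 CPM. The study names *rag1* and *rorc* as normally raised at this stage. Whether *rorca* and *rorcb* mark it in these cells was not tested. *dntt* missed the threshold in the fit over 12 libraries (edgeR adjusted p = 0.0699) and without the filter (edgeR adjusted p = 0.0512). *rag1*, *rag2* and *rorc* were known to be lower when the list was written.

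Of 18 regulators of coreceptor genes tested at day 3, 4 were lower past the threshold and 0 higher (2 higher by DESeq2), with 14 of 18 below 0 and a median log2 fold change of −0.86 that turned to 0.54 when libraries were scaled by the pan-T markers, where the median of all genes was 1.72. With that scaling the calls turned to 4 higher and 0 lower, and with ERCC scaling 10 were lower. *bcl11bb*, of the Bcl11b family that in mice is needed for T-cell identity, had 783, 783 and 1580 CPM in DMSO day 3 and 401, 111 and 223 CPM in JQ1 day 3 (log2 fold change −2.04, standard error 0.53, edgeR adjusted p = 0.0359). *tcf3b*, an E protein gene, changed by −1.49 (edgeR adjusted p = 0.0243), *ets1* by −1.39 (edgeR adjusted p = 0.0336) and *cbfb*, the partner of Runx proteins, by −1.02 (edgeR adjusted p = 0.0391). Chosen for their role after their values were seen, *runx3*, which in mice silences Cd4 in CD8 cells, had −1.19 (edgeR adjusted p = 0.0539), and *zbtb7b*, which in mice directs cells to the CD4 lineage, had 1.95 (edgeR adjusted p = 0.0514). With pan-T scaling they had 0.26 and 3.77. In DMSO day 1 *zbtb7b* had 3.39, 8.06 and 35.9 CPM, where the macrophage sums were 77.3, 139 and 1120 CPM. Its highest level, 42.7 CPM, was in JQ1 day 3 replicate 2, which also had the highest macrophage sum. The part of macrophage RNA in *zbtb7b* was not tested.

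The list of T-cell receptor signaling genes gave 2 lower and 1 higher of 9 tested, with a median of −0.79. With pan-T scaling the median was 0.66, against 1.72 for all genes, and 3 were higher and 0 lower. *zap70*, the kinase that acts after Lck, changed by −1.48 (standard error 0.42, edgeR adjusted p = 0.0431) and *itk* by −1.31 (standard error 0.32, edgeR adjusted p = 0.032). With pan-T scaling they had −0.12 (edgeR adjusted p = 0.847) and 0.27 (edgeR adjusted p = 0.7). *cd247l*, named as a relative of the Cd3 zeta chain gene, changed by 2.31 (standard error 0.56, edgeR adjusted p = 0.0315). It was one of the genes whose vehicle groups did not overlap between days, with 38, 8.64 and 8.58 CPM in DMSO day 1 and 3.45, 3.93 and 1.5 CPM in DMSO day 3, the reverse of the Cd8 genes. Of the pan-T markers *themis*, in mice a T-cell receptor signaling protein of thymocytes, was past the threshold (−1.84, edgeR adjusted p = 0.0426) and the 3 others were not. The fit over 12 libraries and DESeq2 each called 2 of the 4 lower, and ERCC scaling called all 4. Scaling by these markers themselves called 0 of them.

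Genes of double-negative and γδ T-cells gave 1 higher of 6 tested and none lower (3 higher by DESeq2 with size factors from the genes). *trgc1*, *trdc* and *zbtb16a* were listed without a match, so no γδ receptor gene was tested. The median of the list was 1, and 1 gene was below 0. That gene, *gzmk*, had −1.03 (edgeR adjusted p = 0.217), with each JQ1 library below each DMSO library, as in 26.6% of all genes. *sox4a* had 0.61 with overlap (edgeR adjusted p = 0.538). *sox13*, in mice a γδ lineage transcription factor gene, had 5.34, 3.38 and 2.19 CPM in DMSO day 3 and 13.4, 18.2 and 16.5 CPM in JQ1 day 3, a log2 fold change of 2.19 (standard error 0.43, edgeR adjusted p = 0.0252). In DMSO day 1 it had 39.8, 11.4 and 11.9 CPM, above each DMSO library of day 3, a non-overlap that 3.71% of genes showed between the vehicle groups in this direction. In *sox13*, as in *cd247l*, the low group was thus DMSO day 3, the group in which the Cd8 genes were high.

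The ligands of the coreceptors are MHC molecules. Of 8 class I genes tested, 2 were lower and 0 higher, namely *mhc1zea* (−1.31, edgeR adjusted p = 0.0273) and the peptide-loading gene *tapbp.1* (−1.27, edgeR adjusted p = 0.0339), and their list had a median of −0.19 that was 1.47 with pan-T scaling. Class I genes form a family of close copies, so their counts are uncertain. Of 5 class II genes 0 passed (edgeR, 0 also at an unadjusted p under 0.05 and by DESeq2 with size factors from the genes), with a median of 0.97. With pan-T scaling 3 of the 5 were higher past the threshold and the median was 2.57, and 3 of the 8 class I genes were also higher. With this scaling 6671 of all 16271 genes were higher, and the median of all genes was 1.72. *cd74a*, the invariant chain gene, had 1.03 (edgeR adjusted p = 0.265) and its paralog *cd74b* 0.90 (edgeR adjusted p = 0.312), and with pan-T scaling the adjusted p was 0.00889 and 0.0139 (edgeR).

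Markers of other cells moved beside the coreceptors at day 3. Of 6 macrophage markers tested 3 were higher past the threshold, *marco* (4.10, edgeR adjusted p = 0.0261), *csf1ra* (3.15, edgeR adjusted p = 0.0308) and *c1qc* (2.75, edgeR adjusted p = 0.0297, 0.062 in the fit over 12 libraries), and the median of the list was 2.64. Of 1 granulocyte, 4 B-cell and 3 NK and cytotoxic markers tested, 0 passed (edgeR, 0 also at an unadjusted p under 0.05 and by DESeq2 with size factors from the genes), with medians of 0.98, −0.43 and 1.19. *cd40* (−0.24) and *blnk* (1.03) were the most abundant B-cell markers, *nkl.2* (1.23) and *tbx21* (0.79) the most abundant cytotoxic ones, and *lyz* had 0.98. The other B-cell markers tested, *cd79a* (−2.02) and *pax5* (−0.63), were lower without passing. The part of these cells in the Cd8 difference was not tested. With libraries scaled by the pan-T markers, the log2 fold changes at day 3 were −3.51 for *cd8a*, −4.53 for *cd8b*, 1.67 for *cd4-1* and 2.67 for *cd4-2.2*, against a median of 1.72 for all genes.

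**Figure D5:**
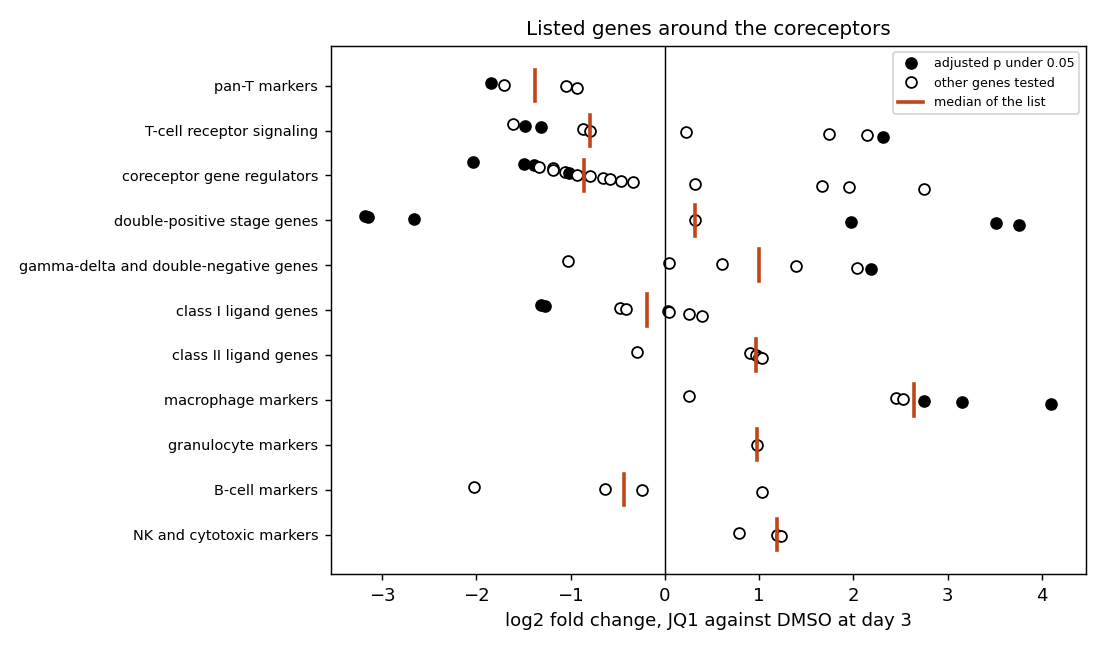
Log2 fold changes of JQ1 against DMSO at day 3 for the tested genes of 11 lists, 1 point a gene, filled where the adjusted p (edgeR) was under 0.05, with a bar at the median of each list. Genes listed for the double-positive stage lie on both sides (*rag1* −3.15, *rorc* −3.18, and the *rorc* relative *rorca* 3.51), and macrophage markers lie to the right.

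Genes that neighbour the coreceptors in the RefSeq annotation were examined last. *cd8b* and *cd8a* are adjacent coding genes, and of the 5 coding genes on each side 7 were matched by name and 5 tested at day 3. *cast*, the calpastatin gene, had a log2 fold change of 1.42 (edgeR adjusted p = 0.0488). Its call was lost with ERCC scaling (adjusted p = 0.122 by edgeR and 0.109 by DESeq2) and without the filter (edgeR adjusted p = 0.0606). The 4 others, *zmat1*, *ell2*, *glrx* and *rhobtb3*, lay between −0.19 and 0.65. Beside *cd4-1* and *cd4-2.2*, 7 of 10 were matched and 6 tested, among them the chemokine receptor gene *cxcr3.2* (3.65, edgeR adjusted p = 0.0308). The others ran from −1.31 for *cdca3* to 3.47 for *cxcr3.3* and did not pass.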

How the data were processed

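Reads (100 bp, paired-end, from strand-specific libraries) had been aligned by the authors with STAR 2.5.2a against GRCz11, and those with 1 mapping place were counted per Ensembl gene by featureCounts. The deposited table holds raw counts for 25743 features, of which 25607 are zebrafish genes, and 92 ERCC sequences served as an alternative scale. After the filter on low counts, 15813 genes were tested at day 1 and 16271 at day 3. Between the vehicle groups 14106 were tested, and between the JQ1 groups 17460. The transgenes and 42 constructs were left out. The authors' DESeq2 1.12.4 tables hold their own fold changes and p-values and were not used here.

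Groups follow the labels. Each comparison was fitted on its 6 libraries with edgeR 4.0.16 (R 4.3.3; filterByExpr, TMM, two-sided quasi-likelihood test, Benjamini-Hochberg threshold 0.05), and standard errors were derived from the F statistic. DESeq2 1.42.0, other scalings, no filter, all 12 libraries in 1 fit, a replicate block and the omission of each library were alternatives. The omission of libraries from the *cd8b* to *lck* ratio at day 1 and from the ratios at day 3 was added after seeing the data. Fits were tested on simulated data in which 200 genes changed 4-fold. Of these 31.5% were called at day 1 and 30% at day 3, and 2 and 5 unchanged genes were called. These shares hold for the simulated setting, and another number of changed genes could give other shares. A gene that did not pass may still have changed. Log2 CPM for correlations used a prior count of 2. Depth per library was 8176139 to 12771912 counts, and intervals cover counting error only.

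Names came from Ensembl and RefSeq tables (GRCz12tu, names and order only), and listed genes without a unique match were left out. The coreceptor genes, the lists and the tests were chosen with earlier results of these data known. The genes named were the coreceptors, *lck*, up to 3 genes per list past the threshold at day 3 with at least 10 CPM (otherwise the 2 most abundant), the 5 most correlated genes and 5 neighbours on each side. The calls *cbfb*, *dntt*, *rorca* and *rorcb* complete counts and were added after their values were seen. So were the listed genes *gzmk*, *sox4a*, *id3*, *il2rb*, *il2rgb*, *cd79a*, *cd79b* and *pax5*. One of the correlated genes is not reported here.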

Additional observations from a re-analysis of the deposited data

How the results depend on the processing

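With 1 library left out in turn, the log2 fold change at day 1 ranged from −2 to −0.09 for *cd8a*, −3.59 to −1.63 for *cd8b*, −1.75 to 0.28 for *cd4-1* and −1.15 to 0.63 for *cd4-2.2*. At day 3 it ranged from −5.57 to −4.55, −6.17 to −5.26, −0.37 to 0.37 and 0.41 to 1.43, between vehicle groups from 3.21 to 4.32, 2.6 to 3.77, −0.48 to 1.61 and −1.28 to 0.38, and between JQ1 groups from −1.06 to 0.82, −0.94 to 0.99, 0.99 to 1.65 and 0.36 to 1.41. The *cd8a* to *lck* ratio at day 1 ranged from −1.76 to 0.55, with 0.21 and 0.55 reversed, and the *cd8b* to *cd8a* ratio from −2.87 to −0.94. Listed genes called ranged from 0 to 4 at day 1 and from 0 to 18 at day 3. The cause of these moves was not tested, beyond the smaller number of libraries.

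ERCC scaling gave day 1 changes of −2.35, −3.75, −2.54 and −2.23 for *cd8a*, *cd8b*, *cd4-1* and *cd4-2.2* with edgeR and of −2.38, −3.81, −2.54 and −2.26 with DESeq2, all past the threshold. Between the JQ1 days it gave 0.61 and 0.58 for *cd8a*, 2.03 and 1.99 for *cd4-1* and 1.99 and 1.96 for *cd4-2.2* by the same tools. Scaling by the pan-T markers gave −3.51, −4.53, 1.67 and 2.67 at day 3, and 2.74 (*cd4-1*) and 2 (*cd4-2.2*) between the JQ1 days. With it *itk* (0.27), *ets1* (0.04), *mhc1zea* (0.16), *tapbp.1* (0.2) and *runx3* (0.26) turned higher at day 3, by a factor common to all genes of a library. Listed genes called at day 1 were 31 with ERCC scaling, 1 in the fit over 12 libraries, 6 by DESeq2 and 33 by DESeq2 with ERCC size factors, which gave 37 at day 3. Over all genes at day 1 the calls were 7, against 6193 with ERCC scaling, 0 with pan-T scaling, 225 without the filter, 919 in the fit over 12 libraries, 2015 by DESeq2 and 7865 by DESeq2 with ERCC size factors. They were 1591 without DMSO day 1 replicate 3 and 0 without any other library of day 1. At day 3 they were 4104, against 6691 with pan-T scaling, of which 6671 were higher, 6292 by DESeq2 and 7635 by DESeq2 with ERCC size factors.

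The deviations of samples with the same replicate number correlated between −0.281 and 0.136. With 3 libraries a group these values cannot show whether the samples were paired. With a replicate block 0 listed genes and 0 of all genes passed at day 3 (33 and 6096 at an unadjusted p under 0.05).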
